A study of Mus musculus with 20 samples.

Results

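The lymph node draining the ileum was compared with the inguinal node, which drains skin, in mice without functional Rag1. The comparison uses 8 of the 20 libraries of the study, 4 from ileal and 4 from inguinal nodes, chosen by their labelled node position. All mice were Rag1-/- (strain B6.129S7-Rag1tm1Mom/J), 9 weeks old and untreated as far as the labels say, so the mutation is shared by both groups and is not what was compared. Rag1 is needed to assemble antigen receptor genes, and mature T and B cells do not form without it. Whole nodes were read as bulk polyA RNA, and nodes draining the duodenum, the jejunum and the cecum with the colon gave the other 12 libraries. Whether the 4 libraries of a group came from different animals is not labelled, and p-values therefore cover the spread among libraries alone. That spread was estimated within positions over all 20 libraries, not only the 8 compared.

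A lymph node is built by stromal cells. Reticular fibroblasts make its scaffold and chemokines, high endothelial venules admit cells from blood, and lymphatic endothelium lines the sinuses through which lymph flows past macrophages. Nodes draining gut receive dendritic cells and vitamin A products from the intestine, whereas skin nodes receive Langerhans cells and dermal dendritic cells. In bulk RNA, fewer cells of a type and less RNA per cell cannot be told apart.

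Levels are given in CPM, counts per mega counts (M) of the library after TMM scaling, and fold changes as log2 ileal minus inguinal ± SE. That SE is the absolute log2 fold change divided by the square root of the F statistic of the test described below. It restates that test and is not a separate error estimate, so it may be too small where counts are few. Rag1, the mutated gene, gave 1.98, 2.53, 2.25 and 2.13 CPM in ileal libraries 1 to 4, against 3.43, 3.2, 2.83 and 3.22 CPM in inguinal libraries 1 to 4. A count over the whole gene cannot tell the mutated part from the rest, and both groups carry the mutation, so no label is checked by it. Rag2, its partner, stood at 0.373 ± 0.0389 CPM in ileal and 0.375 ± 0.0819 CPM in inguinal nodes (mean ± SD, n = 4 each), a log2 fold change of -0.01 ± 0.22. Markers of lymph node tissue were present in each of the 8 libraries. Ccl21a, a chemokine of T-zone reticular and lymphatic cells, reached 1637, 2026, 2156 and 1254 CPM in ileal libraries 1 to 4, against 823, 1216, 1559 and 1215 CPM in inguinal libraries 1 to 4, although reads of the near-identical Ccl21 genes cannot be assigned with certainty. Ccl19, its companion in the T zone, stood at 266 ± 39.1 CPM in ileal and 250.4 ± 37.9 CPM in inguinal nodes. The groups overlapped in both, and neither passed the test described next, with adjusted p of 0.0605 and 0.769. Ccl21a passed it without ileal library 4 (adjusted p = 0.0272), without inguinal library 3 (adjusted p = 0.0295) and with DESeq2 (adjusted p = 0.0297).

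Libraries held 184.0 to 213.2 M (mega) estimated counts in ileal and 148.2 to 294.2 M in inguinal nodes. Of 29411 genes tested, 6648 (22.6%) were called, that is, had a Benjamini-Hochberg adjusted p under 0.05 by edgeR's quasi-likelihood test. Ileal nodes were higher for 3687 of them (12.5% of genes tested) and lower for 2961 (10.1%). Counts of called list members given below are to be read against these shares. The median log2 fold change, ileal minus inguinal, was 0.65 among genes called higher, -0.63 among genes called lower and -0.01 over all genes tested. Differences of at least 2-fold were called for 1996 genes (6.79%), 1129 higher and 867 lower in ileal nodes. The groups did not overlap for 8634 genes (29.4%), meaning that each library of one node exceeded all 4 of the other.

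**Figure D1:**
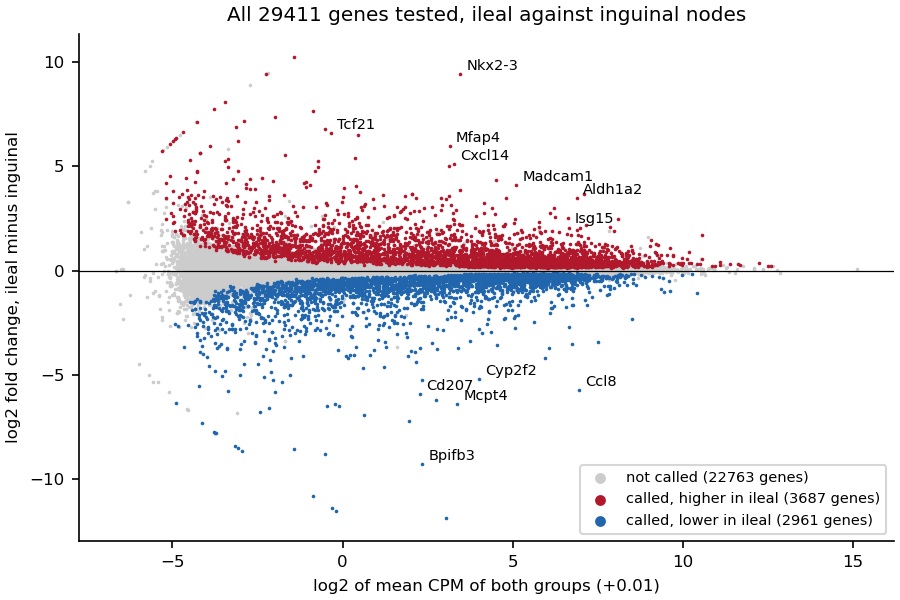
Log2 fold change of ileal minus inguinal nodes (y axis) against the log2 mean CPM of both groups (x axis) for all 29411 genes tested, 1 point per gene. The 3687 red genes were called higher and the 2961 blue genes lower in ileal nodes, and Nkx2-3 stands at the top among genes of more than a few CPM, with Mup22, the lowest blue point, and Bpifb3 at the other end.

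The widest difference among well-expressed genes that were higher in ileal nodes was that of Nkx2-3 (ENSMUSG00000044220), a homeodomain factor of gut mesenchyme and spleen needed for mucosal vessels. It had 22.7, 20.1, 22.6 and 22.8 CPM in ileal libraries 1 to 4, against 0.0486, 0.0130, 0.0306 and 0.0452 CPM in inguinal libraries 1 to 4. Ileal library 2 was the lowest of its group, and each ileal library stood far above every inguinal library, which held only traces. The log2 fold change was 9.43 ± 0.18 (adjusted p = 6.26e-18), and its size rests on few inguinal counts. Madcam1 (ENSMUSG00000020310), the mucosal addressin that binds gut-homing lymphocytes, had 75.3, 60.6, 70.3 and 53.6 CPM in ileal libraries 1 to 4, against 3.52, 3.85, 3.67 and 4.05 CPM in inguinal libraries 1 to 4. The inguinal libraries lay close together and the groups did not overlap (log2 fold change 4.11 ± 0.21, adjusted p = 1.89e-11).

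In the opposite direction, Tbx15 (ENSMUSG00000027868), a T-box gene active in mesenchyme of limb and skin, had 0.167, 0.144, 0.289 and 0.102 CPM in ileal libraries 1 to 4, against 12.1, 10.9, 15.1 and 14.5 CPM in inguinal libraries 1 to 4, so that inguinal nodes expressed it and ileal nodes nearly not at all (log2 fold change -6.22 ± 0.30, adjusted p = 7.00e-12). Among 23 tested transcription factors that mark body regions, 9 were higher and 8 lower in ileal nodes, with a median log2 fold change of -0.11. The higher ones included Tcf21, a factor of visceral mesenchyme, with 1.3, 1.7, 1.67 and 1.46 CPM in ileal libraries 1 to 4, against 0, 0.0228, 0 and 0.0388 CPM in inguinal libraries 1 to 4, and Foxf2, a forkhead factor of gut mesenchyme (0.975 CPM in ileal against 0.285 CPM in inguinal nodes). Tcf21 was at 0 in inguinal libraries 1 and 3. The lower ones included Prrx1, a limb and skin mesenchyme factor, with 23.5, 26, 24.9 and 24.9 CPM in ileal libraries 1 to 4, against 63.8, 64.8, 70.8 and 74.6 CPM in inguinal libraries 1 to 4. En1, which patterns limb and skin, and Emx2 were close to 0 in ileal nodes (0.0155 CPM in ileal against 1.43 CPM in inguinal nodes and 0.0190 CPM in ileal against 1.8 CPM in inguinal nodes). Twist1, a mesenchymal basic helix-loop-helix factor, and Tbx18 fell as well, with log2 fold changes of -3.34 ± 0.26 and -4.11 ± 0.29. Tbx18 had 0.437, 0.423, 0.330 and 0.475 CPM in ileal libraries 1 to 4, against 6.53, 7.33, 6.74 and 8.18 CPM in inguinal libraries 1 to 4, without overlap.

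Hox genes give cells their position along the body axis, higher paralog numbers marking more posterior levels. Of 31 tested, 3 were higher and 10 lower in ileal nodes (median log2 fold change -0.16). The higher count is near the share over all genes tested, 12.5%. The posterior genes Hoxc9 and Hoxc10 fell. Hoxc9 had 3.77, 3.37, 2.54 and 3.77 CPM in ileal libraries 1 to 4, against 6.15, 6.62, 6.53 and 7.22 CPM in inguinal libraries 1 to 4, and Hoxc10 had 1.11, 1.54, 0.552 and 1.48 CPM in ileal libraries 1 to 4, against 6.39, 6.53, 7.06 and 7.13 CPM in inguinal libraries 1 to 4. The ileal libraries were below every inguinal library in both, with Hoxc10 most variable among ileal nodes, and the log2 fold changes were -0.98 ± 0.12 and -2.54 ± 0.35. Hoxa10 fell at a low level (0.632 ± 0.102 CPM in ileal and 1.84 ± 0.118 CPM in inguinal nodes), and the anterior Hoxa3 fell too (-0.77). Hoxc4 and Hoxc8, of the same cluster as Hoxc9, rose. Hoxc4 had 6.56, 6.39, 7.13 and 6.07 CPM in ileal libraries 1 to 4, against 3.4, 3.25, 3.45 and 3.48 CPM in inguinal libraries 1 to 4, and Hoxc8 averaged 13.1 ± 0.974 CPM in ileal and 8.24 ± 0.883 CPM in inguinal nodes. Hoxc5 and Hoxc6, which lie between these, had log2 fold changes of -0.003 and -0.16 and were not called.

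**Figure D2:**
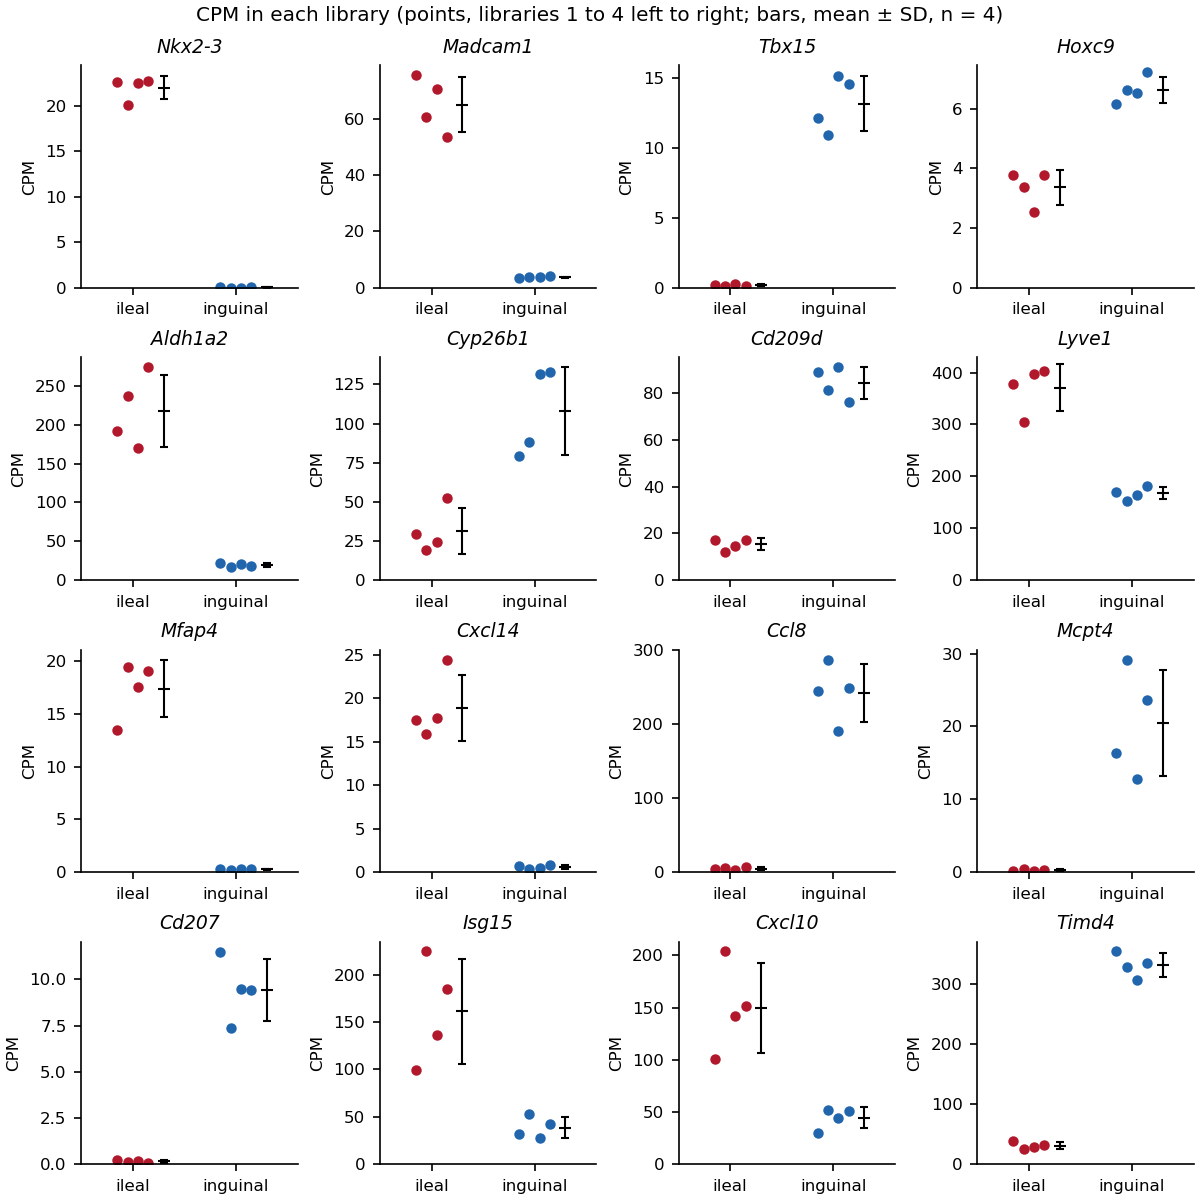
CPM (y axis) of 16 genes in each library, with ileal libraries in red on the left and inguinal libraries in blue on the right of each panel (bars, mean ± SD of 4 libraries). The groups do not overlap in any panel, and the ileal SD in CPM is widest for Isg15, Aldh1a2 and Lyve1.

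Promoter sequence is shown for Madcam1, the addressin above, and for Isg15, Cxcl10 and Ifit1, members of the interferon response list described further on. Each is the 250 bases before the gene's start in RefSeq on build GRCm38.p6, read 5′ to 3′ on the gene's strand. In Madcam1, at chr10:79664309-79664558 on the plus strand, capitals mark AAGTG, the core bound by NKX2 factors, searched on both strands as AAGTG or CACTT. That motif is short and occurs in 40.7% of all 32851 promoter windows of this length.
Madcam1: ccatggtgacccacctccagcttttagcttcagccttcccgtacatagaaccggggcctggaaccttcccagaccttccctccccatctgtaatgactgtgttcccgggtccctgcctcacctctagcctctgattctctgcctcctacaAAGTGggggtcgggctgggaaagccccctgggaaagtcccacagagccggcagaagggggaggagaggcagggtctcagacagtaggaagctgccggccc

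In the other 3, capitals mark the repeat GAAANNGAAA or its reverse TTTCNNTTTC, the core of the interferon-stimulated response element. Neighbouring matches can overlap. It occurs in 2.98% of all windows. Of the 17 interferon response genes in the list used here, 11 had a window in the table, and 7 of the 11 held the motif. The windows lie at chr4:156200819-156201068 on the minus strand for Isg15, chr5:92348890-92349139 on the minus strand for Cxcl10 and chr19:34640639-34640888 on the plus strand for Ifit1. A match describes the letters only and is not a measured binding site.
Isg15: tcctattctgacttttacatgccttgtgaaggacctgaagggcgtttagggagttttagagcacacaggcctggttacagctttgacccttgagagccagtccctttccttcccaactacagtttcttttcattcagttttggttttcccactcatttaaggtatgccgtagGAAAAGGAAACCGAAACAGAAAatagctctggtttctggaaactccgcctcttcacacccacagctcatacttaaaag
Cxcl10: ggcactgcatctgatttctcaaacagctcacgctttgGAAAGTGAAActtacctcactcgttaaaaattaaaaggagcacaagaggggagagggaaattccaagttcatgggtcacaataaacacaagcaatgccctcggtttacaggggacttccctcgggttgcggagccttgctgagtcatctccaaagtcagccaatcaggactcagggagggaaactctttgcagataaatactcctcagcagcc
Ifit1: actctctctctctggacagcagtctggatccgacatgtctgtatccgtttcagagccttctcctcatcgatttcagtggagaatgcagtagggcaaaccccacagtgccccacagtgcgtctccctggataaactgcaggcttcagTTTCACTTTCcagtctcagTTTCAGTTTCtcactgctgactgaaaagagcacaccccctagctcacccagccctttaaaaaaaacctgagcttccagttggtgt

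Vitamin A is stored as retinyl ester, oxidised to retinoic acid by retinal dehydrogenases and degraded by CYP26 enzymes. Aldh1a2 (ENSMUSG00000013584), the retinal dehydrogenase of gut dendritic and stromal cells, had 192, 237, 170.2 and 274 CPM in ileal libraries 1 to 4, against 22, 16.1, 20.9 and 18.6 CPM in inguinal libraries 1 to 4. Each ileal library was several times any inguinal one (log2 fold change 3.49 ± 0.16, adjusted p = 4.39e-12). Rarb, a receptor gene that retinoic acid induces, was at 2.71 ± 0.258 CPM in ileal and 0.600 ± 0.157 CPM in inguinal nodes, and Lrat, which esterifies retinol for storage, at 11.8 ± 1.93 CPM in ileal and 3.04 ± 0.406 CPM in inguinal nodes. Dhrs3, which returns retinal to retinol, rose by log2 1.23 ± 0.10. Cyp26b1, the degrading enzyme, went the other way, with 29.1, 19.1, 24.1 and 52.1 CPM in ileal libraries 1 to 4, against 79.2, 88.5, 132 and 133 CPM in inguinal libraries 1 to 4. Ileal library 4 stood highest in its group but below all inguinal libraries (log2 fold change -1.80 ± 0.35, adjusted p = 0.000594). In all, 8 of 24 tested retinoid genes were higher and 5 lower, with a median log2 fold change of 0.10.

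Genes of blood vessels and high endothelial venules were mostly lower in ileal nodes: 12 of 23 fell and 3 rose, Madcam1 being 1 of the 3 (median log2 fold change -0.34). The count that rose is near the share over all genes tested, 12.5%. Glycam1, a secreted ligand of L-selectin, had 138, 136, 141 and 68.1 CPM in ileal libraries 1 to 4, against 714, 613, 549 and 579 CPM in inguinal libraries 1 to 4. Ileal library 4 stood apart below the other 3 ileal libraries, and no ileal library reached the inguinal range. Chst4 and Fut7, the sulfotransferase and fucosyltransferase that finish L-selectin ligands, were at 5.5 ± 2.31 CPM in ileal and 32.7 ± 6.46 CPM in inguinal nodes for Chst4 and 10.5 ± 2.2 CPM in ileal and 34.6 ± 6.54 CPM in inguinal nodes for Fut7. The log2 fold changes were -2.35 ± 0.33 for Glycam1, -2.57 ± 0.33 for Chst4 and -1.72 ± 0.24 for Fut7. Gcnt1, which builds the core of the same glycans, fell as well (-0.57 ± 0.07). Vwf, the platelet-binding factor of endothelium, had 108, 88, 104 and 81.7 CPM in ileal libraries 1 to 4, against 220.1, 244, 242 and 206 CPM in inguinal libraries 1 to 4 (log2 fold change -1.25 ± 0.13). Flt1, a receptor of vascular endothelial growth factor, fell slightly (49.1 CPM in ileal against 62.9 CPM in inguinal nodes).

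Lymphatic endothelial genes went mainly upward, with 13 of 20 higher and 3 lower (median log2 fold change 0.64). Madcam1 belongs to this list too and is counted again among the 13. Lyve1, a hyaluronan receptor of lymphatic vessels that some macrophages also carry, had 379, 306, 398 and 402 CPM in ileal libraries 1 to 4, against 169.8, 153, 165 and 181 CPM in inguinal libraries 1 to 4. Prox1, the factor that sets lymphatic identity, was at 76.6 ± 3.51 CPM in ileal and 49.9 ± 4.58 CPM in inguinal nodes. Marco, a scavenger receptor of sinus endothelium and medullary macrophages, was at 1504 ± 187 CPM in ileal and 799 ± 111 CPM in inguinal nodes, and Clec4g, a lectin of sinus endothelium, at 26.7 ± 1.48 CPM in ileal and 7.6 ± 0.579 CPM in inguinal nodes. The 2 groups were apart in each of these 4 genes, with log2 fold changes of 1.15 ± 0.18, 0.62 ± 0.15, 0.91 ± 0.13 and 1.81 ± 0.16. Cd209d, a C-type lectin, had the lowest log2 fold change of the list, with 17.1, 11.9, 14.4 and 17.3 CPM in ileal libraries 1 to 4, against 88.9, 81.4, 91.2 and 76.2 CPM in inguinal libraries 1 to 4, although reads of the related Cd209 genes may be shared.

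Reticular cell genes divided. Tnfsf11, the ligand RANKL made by marginal reticular and lymphoid cells, had 50.4, 49.8, 54 and 51.5 CPM in ileal libraries 1 to 4, against 19.6, 22.2, 20.6 and 23.3 CPM in inguinal libraries 1 to 4. Grem1, a BMP antagonist of T-zone reticular cells, was at 78.2 ± 9.56 CPM in ileal and 36.2 ± 7.23 CPM in inguinal nodes, and Pdpn, podoplanin of reticular and lymphatic cells, at 18.6 ± 0.879 CPM in ileal and 11.8 ± 0.693 CPM in inguinal nodes. Of 14 T-zone genes 4 were higher and 4 lower, and of 13 follicular genes 4 were higher and 5 lower. Madcam1 is counted among the higher follicular genes as well. Cxcl13, the B-cell follicle chemokine, was the follicular gene with the widest fall, at 17.3, 19.3, 17.4 and 13.4 CPM in ileal libraries 1 to 4, against 191, 235, 174 and 182 CPM in inguinal libraries 1 to 4 (log2 fold change -3.54 ± 0.32, adjusted p = 5.85e-08). Fcgr2b, the inhibitory IgG receptor of follicular dendritic cells and myeloid cells, fell to 35.8 CPM in ileal against 103 CPM in inguinal nodes. Medullary genes were higher in 5 of 12 and lower in 2, led by the cytokine Il6 with 2.88, 2.28, 1.9 and 2.13 CPM in ileal libraries 1 to 4, against 0.448, 0.423, 0.322 and 0.336 CPM in inguinal libraries 1 to 4. Nr4a2, an orphan nuclear receptor, and Il33, an alarmin stored in reticular nuclei, rose by log2 1.84 ± 0.13 and 1.18 ± 0.11.

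Matrix genes were higher in ileal nodes in 13 of 26 and lower in 2 (median log2 fold change 0.41). Mfap4, a microfibril glycoprotein, had 13.5, 19.4, 17.6 and 19.1 CPM in ileal libraries 1 to 4, against 0.302, 0.218, 0.306 and 0.310 CPM in inguinal libraries 1 to 4, a log2 fold change of 5.95 ± 0.44. Col14a1, a collagen that lies on fibrils, had 244, 234, 257 and 286 CPM in ileal libraries 1 to 4, against 21.9, 15.5, 20.2 and 23.5 CPM in inguinal libraries 1 to 4. Cilp, a matrix protein known from cartilage, was at 43.1 ± 9.57 CPM in ileal and 2.13 ± 1.03 CPM in inguinal nodes, and Spon1, a spondin, at 187 ± 23.7 CPM in ileal and 48.8 ± 8.7 CPM in inguinal nodes. No inguinal library reached an ileal one in these 4 genes.

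Secreted regulators of Wnt and BMP signalling were higher in 13 of 29 and lower in 6. Wnt2b, a Wnt ligand of gut mesenchyme, had 33.6, 27.2, 35.1 and 32.2 CPM in ileal libraries 1 to 4, against 3.91, 3.11, 3.02 and 3.64 CPM in inguinal libraries 1 to 4 (log2 fold change 3.23 ± 0.12). The Wnt antagonist Sfrp4 was at 20.4 ± 3.87 CPM in ileal and 1.39 ± 0.608 CPM in inguinal nodes, whereas its relative Sfrp2 was at 1.47 ± 0.393 CPM in ileal and 19.6 ± 2.95 CPM in inguinal nodes. These related antagonists were thus opposite, with log2 fold changes of 3.88 ± 0.23 and -3.74 ± 0.24. Dkk3, a Dickkopf family member, rose (39.6 CPM in ileal against 12 CPM in inguinal nodes), and Sostdc1, a BMP and Wnt antagonist of skin appendages, fell (0.557 CPM in ileal against 8.25 CPM in inguinal nodes). Further genes with wide differences were Glp2r, the receptor of the gut hormone GLP-2, at 7.66 ± 0.623 CPM in ileal and 0.600 ± 0.112 CPM in inguinal nodes, and Agt, angiotensinogen, at 6.58 ± 1.13 CPM in ileal and 0.557 ± 0.176 CPM in inguinal nodes. Lrrn2, a leucine-rich repeat membrane protein, Fndc5, the irisin precursor, and Syngr3, a synaptic vesicle protein, rose by log2 5.02 ± 0.15, 3.50 ± 0.12 and 3.70 ± 0.18.

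Several genes of secreted proteins were at or near 0 in ileal libraries. Bpifb3 and Bpifb2, lipid-binding proteins of secretions, had 0.00930, 0.0155, 0.0258 and 0.0113 CPM in ileal libraries 1 to 4, against 14.3, 9.02, 8.21 and 8.89 CPM in inguinal libraries 1 to 4 for Bpifb3, and 0.0521 ± 0.0168 CPM in ileal and 7.66 ± 2.31 CPM in inguinal nodes for Bpifb2. Cyp2f2, a cytochrome P450 known from airway cells, had 0.976, 0.981, 0.680 and 0.804 CPM in ileal libraries 1 to 4, against 38.5, 25.9, 29.9 and 31.9 CPM in inguinal libraries 1 to 4. Mup22, a major urinary protein, was at 0 in ileal libraries 1, 2 and 4 and averaged 0.00387 CPM in ileal against 16.5 CPM in inguinal nodes, and its reads cannot be told from those of its near-identical relatives. The log2 fold changes were -9.30 ± 0.41 for Bpifb3, -7.20 ± 0.27 for Bpifb2 and -5.19 ± 0.40 for Cyp2f2.

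Chemokines differed gene by gene. Ccl8 (ENSMUSG00000009185), a monocyte attractant that in mouse skin acts on Ccr8, had 3.48, 5.74, 2.74 and 6.24 CPM in ileal libraries 1 to 4, against 244, 286, 191 and 248 CPM in inguinal libraries 1 to 4 (log2 fold change -5.74 ± 0.31, adjusted p = 5.86e-11). Cxcl14, a stromal and epithelial chemokine, was the reverse, with 17.6, 15.9, 17.8 and 24.4 CPM in ileal libraries 1 to 4, against 0.696, 0.319, 0.444 and 0.795 CPM in inguinal libraries 1 to 4 (5.10 ± 0.24). Neither gene showed any overlap. Of 19 inflammatory chemokines 9 were higher, only 5 without inguinal library 1, and 6 were lower. Cxcl5, a neutrophil attractant, rose (4.36 CPM in ileal against 1.2 CPM in inguinal nodes) and Ccl9 fell (19.7 CPM in ileal against 43.1 CPM in inguinal nodes). Of 13 homeostatic chemokines 2 were higher and 2 lower, near the shares over all genes tested (12.5% higher and 10.1% lower). Among 22 receptors, 4 rose and 7 fell, Ccr10, a receptor for skin and mucosal chemokines, most: it had 1, 0.934, 1.14 and 1 CPM in ileal libraries 1 to 4, against 12, 8.99, 11.5 and 13.2 CPM in inguinal libraries 1 to 4. Cxcr3 and Ccr2, receptors of NK cells and monocytes, fell by 1.02 and 1.04 on the log2 scale. Ccr7, which guides dendritic cells into nodes, was at 919 ± 60.2 CPM in ileal and 556 ± 50.9 CPM in inguinal nodes.

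Mast cell genes fell in 10 of 14 tested members and rose in 1 (median log2 fold change -3.63). Mcpt4, a chymase of connective tissue mast cells, had 0.167, 0.403, 0.103 and 0.306 CPM in ileal libraries 1 to 4, against 16.4, 29.1, 12.7 and 23.6 CPM in inguinal libraries 1 to 4. Cma1, another chymase, was at 0.945 ± 0.212 CPM in ileal and 12.9 ± 4.39 CPM in inguinal nodes, Cpa3, a mast cell carboxypeptidase, at 0.406 ± 0.156 CPM in ileal and 8.56 ± 2.63 CPM in inguinal nodes, and Tpsb2, a tryptase, at 0.255 ± 0.0824 CPM in ileal and 9.72 ± 2.78 CPM in inguinal nodes. Inguinal libraries 2 and 4 were the highest in all 4 genes, and no ileal library came near the lowest inguinal one. The log2 fold changes were -6.39 ± 0.59 for Mcpt4, -3.77 ± 0.23 for Cma1, -4.39 ± 0.30 for Cpa3 and -5.25 ± 0.56 for Tpsb2. The receptor Kit and the histamine enzyme Hdc, which other cells also express, had log2 fold changes of 0.33 and 0.12 and were not called. The single higher member, the mucosal protease Mcpt1, lost its call without ileal library 1, and 2 members were higher without ileal library 4.

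Macrophage genes moved both ways, 9 of 23 higher and 10 lower. Timd4, a phosphatidylserine receptor of resident macrophages, had 37.8, 25.6, 28.2 and 32.4 CPM in ileal libraries 1 to 4, against 354, 329, 307 and 336 CPM in inguinal libraries 1 to 4 (log2 fold change -3.42 ± 0.16, adjusted p = 7.67e-12). Folr2, a folate receptor, and Cd209f fell to 11.2 CPM in ileal against 53.9 CPM in inguinal nodes and 8.59 CPM in ileal against 58.5 CPM in inguinal nodes. Cd300ld4, a CD300 family gene of myeloid cells whose reads may be shared with near copies, averaged 6.36 ± 1.56 CPM in ileal and 116 ± 9.14 CPM in inguinal nodes. Cd5l, a secreted inhibitor of macrophage death, was higher instead, with 431, 435, 522 and 575 CPM in ileal libraries 1 to 4, against 193, 253, 178 and 239 CPM in inguinal libraries 1 to 4. Thus Timd4 and Cd5l, both known from tissue macrophages, stood in opposite order between the 2 nodes.

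Monocyte and granulocyte genes fell in 10 of 20 (median log2 fold change -1.01) and rose in 2, of which 1 was left without ileal library 2 or inguinal library 1 or 3. The count that rose is near the 12.5% higher over all genes tested. Ngp and Camp, neutrophil granule proteins, were at 0.841, 0.821, 0.546 and 0.374 CPM in ileal nodes and 3.78, 5.88, 4.12 and 7.59 CPM in inguinal nodes for Ngp and at 0.162 ± 0.0716 CPM in ileal and 1.32 ± 0.669 CPM in inguinal nodes for Camp. Transcripts of these granule genes were thus at low levels in both nodes, and levels of other neutrophil genes are not given here. Ear2, an eosinophil-associated ribonuclease with near-identical relatives, fell by 1.10 on the log2 scale.

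Dendritic cell genes differed from list to list. Genes of the type 2 list were lower in 8 of 12 (median log2 fold change -0.75). The list also holds Cd207, which is not particular to type 2 cells. Cd207 (ENSMUSG00000034783), langerin of Langerhans cells and some dermal dendritic cells, had 0.246, 0.103, 0.180 and 0.0849 CPM in ileal libraries 1 to 4, against 11.5, 7.37, 9.46 and 9.42 CPM in inguinal libraries 1 to 4. The lectins Clec10a and Mgl2 were at 31.8 ± 2.34 CPM in ileal and 110.3 ± 10.1 CPM in inguinal nodes for Clec10a and 9.44 ± 0.922 CPM in ileal and 45.3 ± 6.11 CPM in inguinal nodes for Mgl2. All 3 were apart between the nodes, with log2 fold changes of -5.92 ± 0.49, -1.79 ± 0.12 and -2.26 ± 0.20. Genes of migratory dendritic cells were higher in 9 of 13 (median log2 fold change 0.50). Il4i1, an amino acid oxidase of mature dendritic cells, had 778, 838, 698 and 1008 CPM in ileal libraries 1 to 4, against 314, 363, 339 and 360.2 CPM in inguinal libraries 1 to 4, and Ido1, which degrades tryptophan, had 6.2, 7, 6.08 and 6.34 CPM in ileal libraries 1 to 4, against 0.880, 0.797, 0.771 and 0.614 CPM in inguinal libraries 1 to 4.

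Among type 1 genes 4 of 11 fell and Clec9a, a receptor for dead cells, rose, at 111 ± 8.53 CPM in ileal and 57 ± 5.81 CPM in inguinal nodes. Cd8a, which without T cells marks a node-resident subset and some innate lymphocytes, went down with 17, 18.4, 15.9 and 17.2 CPM in ileal libraries 1 to 4, against 59.4, 54.2, 51.5 and 50.9 CPM in inguinal libraries 1 to 4, and Naaa, a lysosomal amidase, went down too (167 CPM in ileal against 282 CPM in inguinal nodes). Of 11 plasmacytoid genes 4 were higher and 4 lower, with 2 lower without ileal library 2, ileal library 4 or inguinal library 1. Spib and Pacsin1 rose (153 CPM in ileal against 102 CPM in inguinal nodes and 26.4 CPM in ileal against 14.1 CPM in inguinal nodes) while Tcf4, the master factor of plasmacytoid cells, fell (103 CPM in ileal against 150.2 CPM in inguinal nodes). MHC class II genes were higher in 5 of 11 (3 without ileal library 4 or inguinal library 1). H2-Eb2, a class II beta chain, had 81.3, 102, 89.4 and 100.1 CPM in ileal libraries 1 to 4, against 55.1, 58.6, 57.6 and 55.6 CPM in inguinal libraries 1 to 4, and H2-Oa and H2-DMb2, which tune peptide loading, were higher by log2 0.52 ± 0.12 and 0.43 ± 0.09.

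Innate lymphoid genes went both ways, with a median log2 fold change of 0.11 for the type 2 list and 0.11 for the type 3 list. Of 14 type 2 genes 7 rose and 3 fell. Il17rb, the receptor for IL-25, had 69, 59.8, 60.7 and 53.2 CPM in ileal libraries 1 to 4, against 20.2, 14.6, 16.5 and 15.1 CPM in inguinal libraries 1 to 4. Il1rl1, the receptor for IL-33, was at 27.7 ± 3.26 CPM in ileal and 7.5 ± 0.780 CPM in inguinal nodes, Klrg1 at 12.3 ± 1.61 CPM in ileal and 4.24 ± 0.742 CPM in inguinal nodes, and Nmur1, the neuromedin receptor of these cells, at 5.44 ± 0.713 CPM in ileal and 0.658 ± 0.200 CPM in inguinal nodes. Ptgdr2, a prostaglandin receptor used to mark type 2 cells, went the other way, with 0.293, 0.212, 0.289 and 0.198 CPM in ileal libraries 1 to 4, against 4.23, 3.08, 3.36 and 3.44 CPM in inguinal libraries 1 to 4. No library crossed in these 5 genes, whose log2 fold changes were 1.87 ± 0.13, 1.88 ± 0.15, 1.53 ± 0.18, 3.05 ± 0.22 and -3.82 ± 0.22. Of 13 type 3 genes 4 rose and 3 fell. Il22, the epithelial barrier cytokine, had 3.96, 2.36, 3.22 and 1.29 CPM in ileal libraries 1 to 4, against 0, 0.0585, 0.0408 and 0 CPM in inguinal libraries 1 to 4. Ileal library 4 was the lowest of its group and inguinal levels were at or near 0, so the log2 fold change of 6.50 ± 0.81 rests on few inguinal counts.

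Natural killer genes were lower in 11 of 17 (median log2 fold change -0.38). Without inguinal library 2, 7 remained lower. Prf1, perforin, had 28.2, 32.2, 32.9 and 25.2 CPM in ileal libraries 1 to 4, against 44.2, 61.3, 49.1 and 44.9 CPM in inguinal libraries 1 to 4, and Klrc1, an NKG2 receptor, had 31.5, 32.9, 32.5 and 24.7 CPM in ileal libraries 1 to 4, against 50.8, 54.6, 48.7 and 44.3 CPM in inguinal libraries 1 to 4. Klrk1, the NKG2D receptor, was at 139.5 ± 13.2 CPM in ileal and 198 ± 14.5 CPM in inguinal nodes. The falls were small but without overlap, at -0.75 ± 0.13, -0.71 ± 0.11 and -0.51 ± 0.08. Among 20 lymphocyte genes 2 were higher, near the 12.5% over all genes tested, and 9 lower. Cd4, which some innate lymphoid and myeloid cells are known to carry, was at 163 ± 20.9 CPM in ileal and 300.4 ± 23.5 CPM in inguinal nodes, and Ms4a1, encoding the B-cell antigen CD20, at 1.85 ± 0.140 CPM in ileal and 0.649 ± 0.0780 CPM in inguinal nodes.

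Interferon-stimulated genes were higher in ileal nodes without exception in the list: 17 of 17 were called, with a median log2 fold change of 1.30. This list, like the others, was drawn up with earlier results of these data known. Isg15, a ubiquitin-like antiviral protein, had 98.9, 225, 136 and 184 CPM in ileal libraries 1 to 4, against 32.1, 52.9, 27.6 and 41.9 CPM in inguinal libraries 1 to 4 (log2 fold change 2.06 ± 0.25, adjusted p = 3.48e-06). Cxcl10, the interferon-induced ligand of Cxcr3, had 101, 204, 142 and 151 CPM in ileal libraries 1 to 4, against 30.1, 52.2, 44.6 and 51.1 CPM in inguinal libraries 1 to 4 (1.75 ± 0.22, adjusted p = 4.15e-06). Ifit1, an RNA-binding antiviral protein, had 57.2, 143, 84.2 and 102 CPM in ileal libraries 1 to 4, against 25.1, 42.4, 29.5 and 38.4 CPM in inguinal libraries 1 to 4. In these 3 genes ileal library 2 was the highest and library 1 the lowest of the ileal group, and library 1 was still above each inguinal library. Usp18, which removes Isg15 from proteins, was at 173 ± 38.4 CPM in ileal and 72.2 ± 7.8 CPM in inguinal nodes. Summed over the list, levels were 2713 to 5238 CPM in ileal and 1551 to 2141 CPM in inguinal libraries. The 17 calls held without any single library of either group.

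Genes of the interferon-gamma GTPase list were higher in 12 of 15 (median log2 fold change 0.58). The list also holds Ido1, the tryptophan-degrading enzyme given above, which was among the 12, and the chemokine Cxcl9, which was not called. Gbp2, a guanylate-binding protein, had 215, 342, 227 and 269 CPM in ileal libraries 1 to 4, against 154, 173, 156 and 183 CPM in inguinal libraries 1 to 4. Tgtp1, an interferon-induced GTPase whose reads may be shared with Tgtp2, averaged 159.9 ± 40.1 CPM in ileal and 79.6 ± 8.29 CPM in inguinal nodes. Ifng itself, a member of the natural killer list, was lower in ileal nodes, with a log2 fold change of -0.67.

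**Figure D3:**
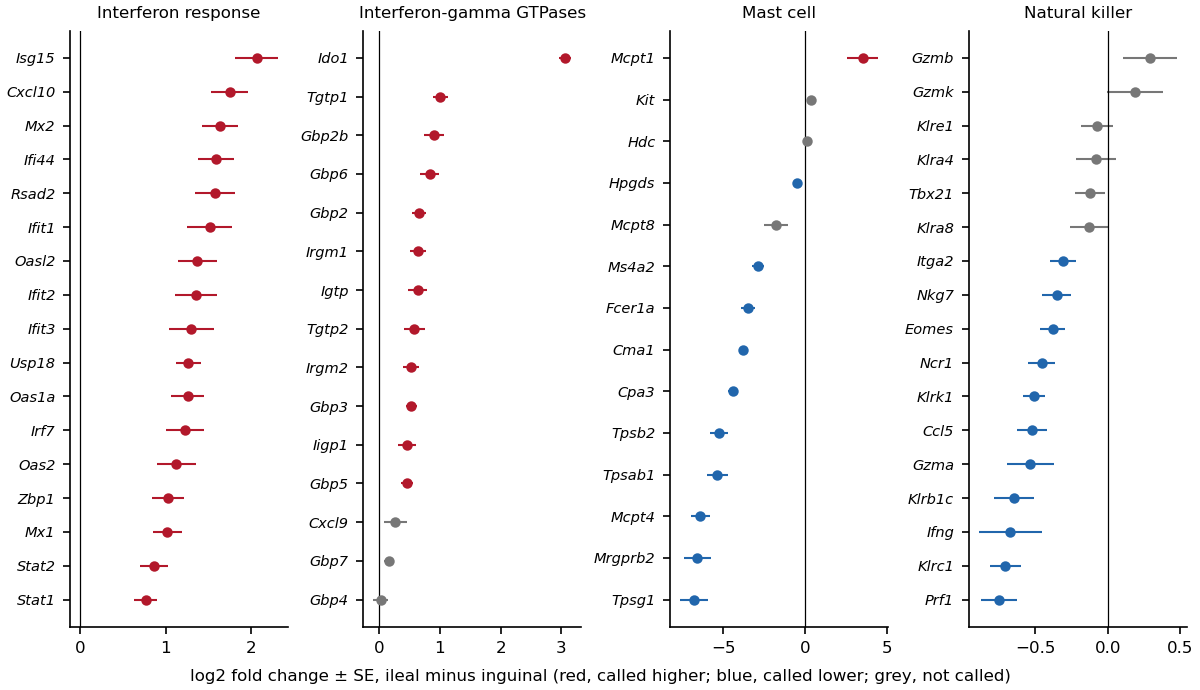
Log2 fold change ± SE of ileal minus inguinal nodes (x axis, a separate scale in each panel) for every tested member of 4 gene lists. All 17 interferon response genes and 12 of 15 interferon-gamma GTPase list genes were called higher (red), while 10 of 14 mast cell and 11 of 17 natural killer genes were called lower (blue), and grey genes were not called.

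Complement genes were higher in 15 of 20 (median log2 fold change 0.44). C6 and C7, which build the membrane attack complex, had 102, 81.3, 104 and 112 CPM in ileal libraries 1 to 4, against 44.4, 40.5, 33.7 and 36.5 CPM in inguinal libraries 1 to 4 for C6, and 24.9, 41.6, 36.2 and 24.7 CPM in ileal libraries 1 to 4, against 2.77, 4.99, 11.8 and 8.46 CPM in inguinal libraries 1 to 4 for C7. Cfi, a protease that restrains the cascade, was at 4.2 ± 0.719 CPM in ileal and 1.02 ± 0.164 CPM in inguinal nodes. The log2 fold changes were 1.36 ± 0.18 for C6, 2.19 ± 0.34 for C7 and 2.04 ± 0.18 for Cfi. Of 20 pattern recognition genes 8 were higher, with Tlr12 and Tlr1 at log2 0.84 ± 0.07 and 0.73 ± 0.09, and 4 lower. Tlr11, the mouse sensor of profilin and flagellin, had 22.4, 22.7, 22.4 and 21.2 CPM in ileal libraries 1 to 4, against 42.9, 35.6, 37.4 and 34.4 CPM in inguinal libraries 1 to 4, opposite to its close relative Tlr12. Fcgrt, the neonatal Fc receptor that recycles IgG and albumin, rose to 242 CPM in ileal against 143 CPM in inguinal nodes. In the TNF family 5 of 18 rose and 2 fell, and Tnfrsf11b, the decoy receptor of RANKL, rose (5.31 CPM in ileal against 1.25 CPM in inguinal nodes). The count that fell is near the share over all genes tested, 10.1%.

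**Figure D4:**
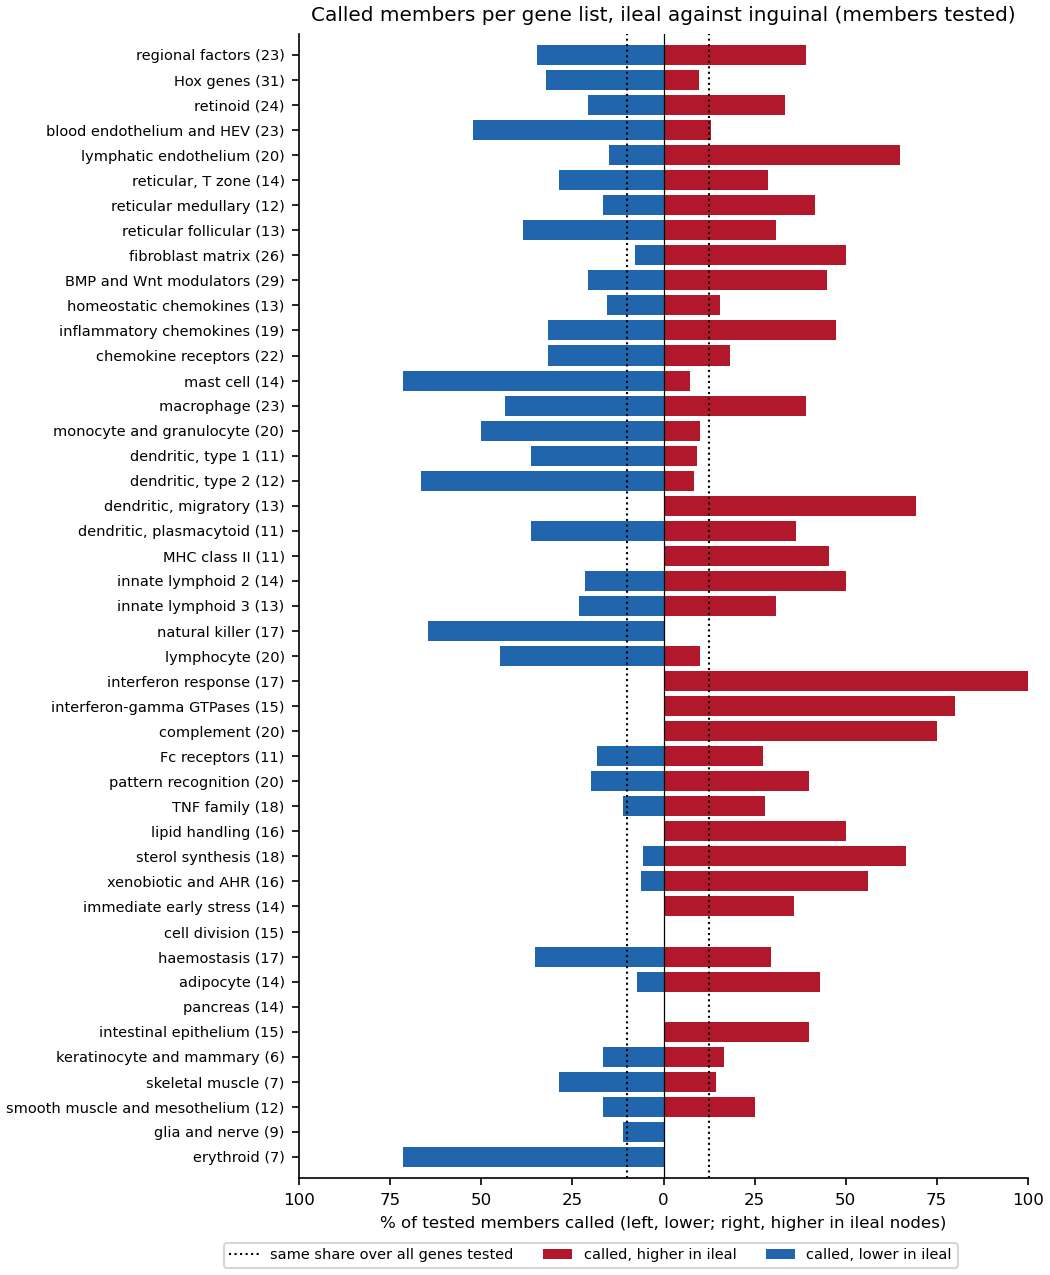
Share of tested members (x axis, percent) called higher (red, right) or lower (blue, left) in ileal nodes for each of 45 gene lists, with the number of members tested in parentheses. Dotted lines mark the shares over all genes tested, 12.5% higher and 10.1% lower. List members were chosen with earlier results of these data known, so the shares describe these members only. Interferon response genes fill the right side. On the left, 10 of 14 mast cell genes and 5 of 7 erythroid genes were called lower, and 1 mast cell gene was called higher.

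Sterol synthesis genes were higher in 12 of 18 and lower in 1 (median log2 fold change 0.53). Idi1, an isomerase of the isoprenoid units, had 89.1, 103.7, 72.2 and 134.5 CPM in ileal libraries 1 to 4, against 46.4, 42, 42.2 and 40.7 CPM in inguinal libraries 1 to 4. Sqle, the squalene epoxidase further along the same route, was at 19.6 ± 2.26 CPM in ileal and 10.8 ± 1.08 CPM in inguinal nodes. Ileal library 4 was the highest of the 8 for both, without overlap between the groups, and the log2 fold changes were 1.22 ± 0.15 for Idi1 and 0.85 ± 0.09 for Sqle. Summed over the list, levels were 2954, 1723, 1783 and 2679 CPM in ileal libraries 1 to 4, against 2152, 902.9, 903.8 and 1062 CPM in inguinal libraries 1 to 4. Inguinal library 1 stood apart from the other 3 inguinal libraries and above ileal libraries 2 and 3. The same library was highest of its group for the summed adipocyte markers given further on, as ileal libraries 1 and 4 were of theirs, and the part of adipocyte RNA in these sums was not tested. Between 11 and 14 members were called higher under every alternative run, leaving out inguinal library 1 among them. Lipid-handling genes were higher in 8 of 16 (median log2 fold change 0.54). Gpnmb, a glycoprotein of lysosomes in lipid-loaded macrophages, had 55.7, 67.8, 84.8 and 68.3 CPM in ileal libraries 1 to 4, against 15.7, 16.4, 19.3 and 32.5 CPM in inguinal libraries 1 to 4, Msr1, a scavenger receptor, was at 120.2 ± 5.76 CPM in ileal and 57.1 ± 7.41 CPM in inguinal nodes, and Plin2, which coats lipid droplets, at 240.5 ± 17.3 CPM in ileal and 132 ± 4.84 CPM in inguinal nodes.

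Of 16 xenobiotic and aryl hydrocarbon receptor genes 9 rose and 1, Cyp2f2, fell, or 2 without ileal library 1 (median log2 fold change 0.72). Ahrr, the repressor that the receptor itself induces, had 20.5, 26.4, 20.7 and 28.3 CPM in ileal libraries 1 to 4, against 9.11, 8.77, 9.71 and 9.08 CPM in inguinal libraries 1 to 4, and Aox3, an aldehyde oxidase, was at 15.8 ± 1.22 CPM in ileal and 5.62 ± 0.691 CPM in inguinal nodes. Haemostasis genes split, 5 of 17 higher and 6 lower, with 3 higher without any one of ileal library 4 or inguinal libraries 2, 3 and 4. Serpinc1, antithrombin, was at 9.56 ± 0.561 CPM in ileal and 5.85 ± 0.237 CPM in inguinal nodes, and Plau, urokinase, at 30.7 ± 1.91 CPM in ileal and 44.1 ± 3.52 CPM in inguinal nodes. None of 15 cell division genes was called by edgeR, DESeq2 or limma-voom, and 0 had an unadjusted p under 0.05 by any of these, with Mki67 at 90.8 ± 7.05 CPM in ileal and 99.7 ± 11.7 CPM in inguinal nodes and Pcna at 85.3 ± 1.71 CPM in ileal and 80.7 ± 5.5 CPM in inguinal nodes. Immediate early genes were higher in 5 of 14, a count between 2 and 8 when single libraries were left out. Zfp36, an mRNA-destabilising member, was at 162 ± 10.9 CPM in ileal and 112 ± 4.82 CPM in inguinal nodes.

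Markers of neighbouring tissues differed between the groups, and their part in the results above was not tested. Summed adipocyte markers were 1763, 1368, 1074 and 1775 CPM in ileal libraries, against 1043, 283.2, 273.8 and 471.9 CPM in inguinal libraries, so inguinal library 1 came close to the ileal range. Of 14 adipocyte genes 6 were higher and 1 lower. The count of higher genes was 3 without inguinal library 2 or 3 and 12 without inguinal library 1. Adipoq, adiponectin, had 98.9, 67.5, 54.9 and 93.7 CPM in ileal libraries 1 to 4, against 51.8, 5.81, 6.17 and 16.4 CPM in inguinal libraries 1 to 4. Its adjusted p of 0.0398 became 0.0569 to 0.117 without ileal library 1, 2 or 4 or inguinal library 2, 3 or 4. Plin1 and Lipe, of fat droplets and lipolysis, had 91.3, 80.0, 69.4 and 113 CPM in ileal nodes and 52, 15.3, 9.95 and 22.9 CPM in inguinal nodes for Plin1, and 142 ± 18.7 CPM in ileal and 75.6 ± 17.7 CPM in inguinal nodes for Lipe.

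Intestinal epithelial markers summed to 24.33 to 26.15 CPM in ileal and 19.72 to 22.5 CPM in inguinal libraries, with 6 of 15 called higher. Cdh17 and Fabp1, an intestinal cadherin and a fatty acid carrier, stood at 1.66 CPM in ileal against 0.689 CPM in inguinal nodes and 1.45 CPM in ileal against 0.659 CPM in inguinal nodes, levels near 1 CPM in either node. Pancreatic markers summed to 8.685 to 9.952 CPM in ileal and 8.136 to 10.49 CPM in inguinal libraries. Of 14 tested, 0 were called, or had an unadjusted p under 0.05, by edgeR, DESeq2 or limma-voom. These fits held duodenal libraries 1 and 2, where the pancreatic gene Cela1 reached 3047 and 1689 CPM. That widens the estimated spread of such genes (SE of 1.087 for Cela1), so the absence of calls cannot show equal levels. With only the 8 ileal and inguinal libraries, 1 was called lower. Smooth muscle and mesothelial markers summed to 256.4 to 270.0 CPM in ileal and 460.3 to 546.6 CPM in inguinal libraries, with 3 of 12 called higher and 2 lower, 1 lower without inguinal library 4. Des, desmin of muscle and pericytes, was at 106 ± 6.35 CPM in ileal and 193 ± 16.5 CPM in inguinal nodes, while Wt1, of mesothelium, was at 1.94 ± 0.167 CPM in ileal and 0.123 ± 0.0419 CPM in inguinal nodes. Erythroid markers summed to 73.96 to 94.39 CPM in ileal and 104.1 to 161.6 CPM in inguinal libraries, with 5 of 7 called lower, 2 without ileal library 4 and 3 without inguinal library 1. Of the keratinocyte and mammary list, 6 of 10 genes could be tested, of which 1 was higher and Trp63, a factor of basal epithelium, lower (0.909 CPM in ileal against 2.73 CPM in inguinal nodes). Skeletal muscle genes were higher in 1 and lower in 2 of 7, each count being 1 or 2 without single libraries, with small sums in both groups (29.28 to 40.25 CPM in ileal and 38.65 to 49.85 CPM in inguinal libraries). In glia and nerve, 1 of 9 genes was called, Prph, a peripheral neuron filament, which was lower (1.52 CPM in ileal against 3.49 CPM in inguinal nodes). Of these genes 0 were higher, but 2 without inguinal library 2 and 1 without ileal library 3. Over all genes tested 12.5% were higher and 10.1% lower. Single calls in the keratinocyte, skeletal muscle and glia lists lie near those shares.

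To see where the ileal node departs from other gut-draining nodes, it was set against the mean of the duodenal, jejunal and ceco-colonic positions in the same fit. That mean is taken over log2 levels, so a difference from it need not hold against each position or against the mean CPM. Ileal libraries take part in both comparisons. Here 1544 genes (5.25%) were called, 1040 higher (3.54%) and 504 lower (1.71%), 146 of them (0.496%) by at least 2-fold. The groups did not overlap for 111 genes (0.377%). The count of calls fell to 526 without ileal library 4 and to 706 without ileal library 3 or 956 without ileal library 1. Nkx2-3 was not called (log2 difference 0.01 ± 0.09, adjusted p = 0.955).

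Hoxc9 averaged 3.36 ± 0.579 CPM in ileal, 0.665 ± 0.0958 CPM in duodenal, 1.59 ± 0.116 CPM in jejunal, 5.18 ± 0.208 CPM in ceco-colonic and 6.63 ± 0.441 CPM in inguinal nodes, higher in ileal than in the mean of the other gut nodes by log2 0.93 ± 0.09 (adjusted p = 3.27e-05). Its level lay between those of the jejunal and the ceco-colonic node, which were themselves far apart. Hoxc10, below the ceco-colonic level and above the jejunal one, averaged 1.17 ± 0.453 CPM in ileal, 0.0236 ± 0.0331 CPM in duodenal, 0.154 ± 0.0835 CPM in jejunal, 6.73 ± 0.468 CPM in ceco-colonic and 6.78 ± 0.371 CPM in inguinal nodes, the ceco-colonic and inguinal levels lying close together. Hoxc8 differed in shape, at 13.1 ± 0.974 CPM in ileal, 7.51 ± 1.24 CPM in duodenal, 11.9 ± 1.52 CPM in jejunal, 6.48 ± 0.332 CPM in ceco-colonic and 8.24 ± 0.883 CPM in inguinal nodes, the ileal and jejunal nodes being highest.

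Lymphatic genes were higher in ileal than in the other gut nodes for 8 of 20, between 7 and 11 when any single library was left out. Lyve1 averaged 371 ± 45 CPM in ileal, 190.4 ± 62.4 CPM in duodenal, 358 ± 50.4 CPM in jejunal, 108 ± 23.8 CPM in ceco-colonic and 167 ± 11.9 CPM in inguinal nodes, and Clec4g 26.7 ± 1.48 CPM in ileal, 21.7 ± 5.15 CPM in duodenal, 28.6 ± 2.79 CPM in jejunal, 5.17 ± 1.3 CPM in ceco-colonic and 7.6 ± 0.579 CPM in inguinal nodes. In both, ileal and jejunal means were close and the ceco-colonic node was lowest. The ileal node exceeded the mean of the other 3 by log2 0.93 ± 0.14 and 0.86 ± 0.12. Prox1 and Marco were higher than that mean by log2 0.65 ± 0.12 and 0.61 ± 0.10. Jejunal levels were again near the ileal ones, with Prox1 at 76.6 ± 3.51 CPM in ileal and 71.2 ± 16.6 CPM in jejunal nodes and Marco at 1504 ± 187 CPM in ileal and 1451 ± 91.0 CPM in jejunal nodes. Macrophage genes were higher for 12 of 23, between 8 and 15 without single libraries. The count was 8 without ileal library 3 or 4. Cd5l averaged 490.5 ± 70.1 CPM in ileal, 204 ± 33.4 CPM in duodenal, 317 ± 41.1 CPM in jejunal, 344 ± 87.1 CPM in ceco-colonic and 216 ± 35.8 CPM in inguinal nodes, the ileal node highest (0.80 ± 0.13, adjusted p = 0.000997). Msr1 and C6 were higher by log2 0.60 ± 0.09 and 1.05 ± 0.13, and Angptl4, an inhibitor of lipoprotein lipase, by log2 0.96 ± 0.12. Plin2 rose by log2 0.46 ± 0.06 and Nr4a2 by log2 0.54 ± 0.10. For these, too, the jejunal node was the nearest, with Msr1 at 120.2 CPM in ileal and 116 CPM in jejunal nodes, C6 at 99.8 CPM in ileal and 82.5 CPM in jejunal nodes, Angptl4 at 90.3 CPM in ileal and 69.8 CPM in jejunal nodes, Plin2 at 240.5 CPM in ileal and 215 CPM in jejunal nodes, and Nr4a2 at 25.5 CPM in ileal and 23.7 CPM in jejunal nodes.

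Among genes with the widest ileal excess, Tmem132e, a membrane protein, averaged 11.8 ± 0.759 CPM in ileal, 5.05 ± 1.62 CPM in duodenal, 8.89 ± 0.924 CPM in jejunal, 4.24 ± 0.962 CPM in ceco-colonic and 5.98 ± 0.333 CPM in inguinal nodes. Every ileal library exceeded each library of the other 3 gut positions (log2 difference 1.03 ± 0.13, adjusted p = 0.000177). Xlr5c and Xlr5b, near-identical X-linked genes whose reads cannot be assigned with certainty, were higher by log2 1.14 ± 0.12 and 1.10 ± 0.14. Foxf2 was higher by log2 1.02 ± 0.16. The jejunal node was the nearest for these 3 genes. Xlr5c was at 35.1 CPM in ileal and 28.0 CPM in jejunal nodes, Xlr5b at 11.3 CPM in ileal and 8.54 CPM in jejunal nodes. Foxf2 was at 0.975 CPM in ileal and 0.686 CPM in jejunal nodes. Sfrp4 averaged 20.4 ± 3.87 CPM in ileal, 7.14 ± 0.195 CPM in duodenal, 13.8 ± 2.26 CPM in jejunal, 18.1 ± 2.35 CPM in ceco-colonic and 1.39 ± 0.608 CPM in inguinal nodes, with the duodenal node lowest among gut positions.

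Lower in the ileal node were Flt1, at 49.1 ± 2.48 CPM in ileal, 74.4 ± 4.66 CPM in duodenal, 61.6 ± 6.84 CPM in jejunal, 68.5 ± 2.86 CPM in ceco-colonic and 62.9 ± 4.69 CPM in inguinal nodes, and Tlr11, at 22.2 ± 0.671 CPM in ileal, 33.5 ± 2.75 CPM in duodenal, 27.5 ± 1.79 CPM in jejunal, 25.8 ± 1.02 CPM in ceco-colonic and 37.6 ± 3.73 CPM in inguinal nodes, in both cases without overlap with other gut libraries. Their log2 differences were -0.47 ± 0.06 (adjusted p = 0.000195) and -0.38 ± 0.06 (adjusted p = 0.000838). Abca5, a lipid transporter, was lower by a small amount (-0.33 ± 0.07), and was not called against the inguinal node (-0.06 ± 0.08). Cd8a and Fcgr2b were lower too, with log2 differences of -0.76 ± 0.12 and -0.44 ± 0.06, although Fcgr2b stood at 35.8 ± 1.99 CPM in ileal and 36.5 ± 2.94 CPM in jejunal nodes. Cd8a averaged 17.1 ± 1.05 CPM in ileal, 40.6 ± 7.39 CPM in duodenal and 21.3 ± 4.91 CPM in jejunal nodes. Jejunal library 2, at 14.6 CPM, was below every ileal library. Sqle was lower than the mean of the other gut nodes (-0.42 ± 0.08), with 19.6 ± 2.26 CPM in ileal and 20.8 ± 2.21 CPM in ceco-colonic nodes, yet higher than in the inguinal node (0.85 ± 0.09). Sostdc1 averaged 0.557 ± 0.236 CPM in ileal, 3.96 ± 1.63 CPM in duodenal, 0.709 ± 0.435 CPM in jejunal, 2.31 ± 0.351 CPM in ceco-colonic and 8.25 ± 2.02 CPM in inguinal nodes, lowest in ileal and jejunal nodes (-1.75 ± 0.34).

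**Figure D5:**
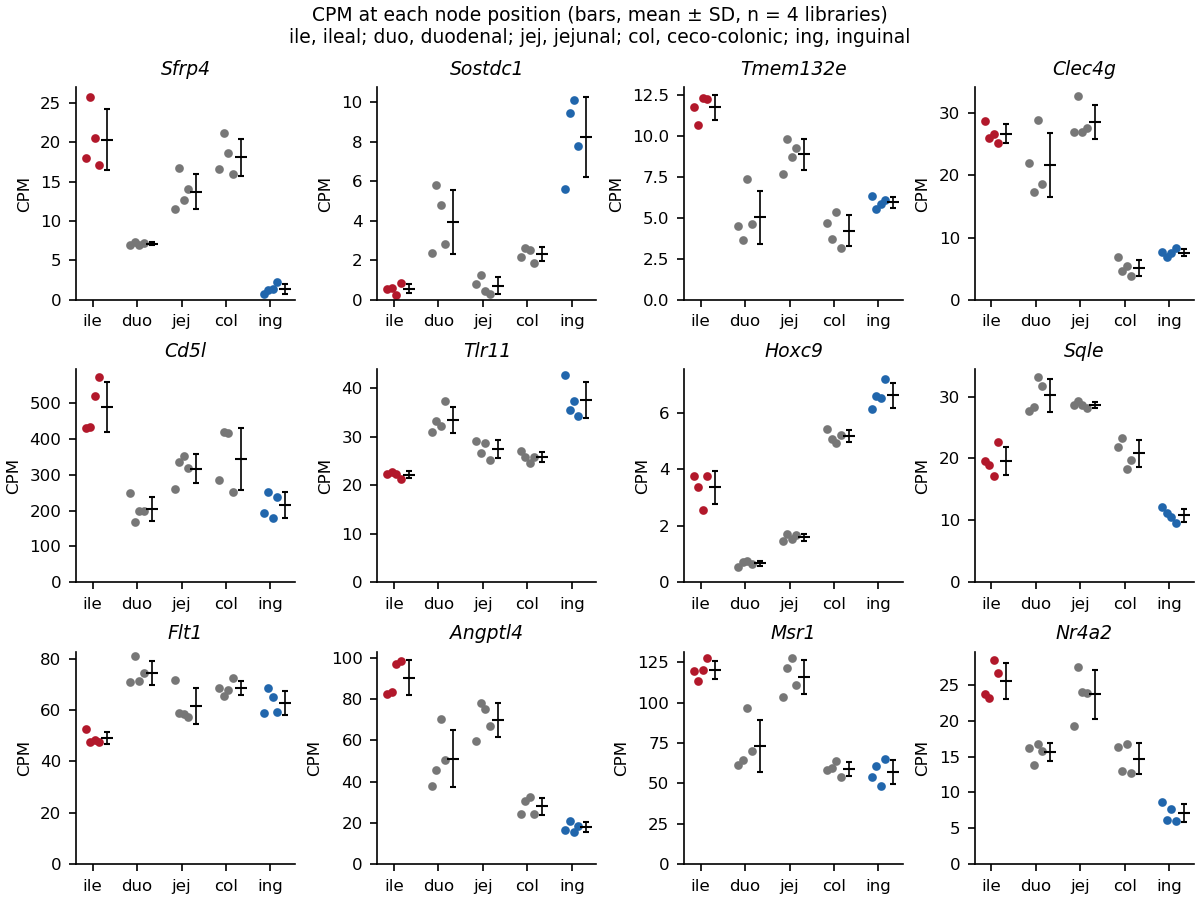
CPM (y axis) of 12 genes at each of the 5 node positions, ileal libraries in red on the left, other gut-draining nodes in grey and inguinal libraries in blue on the right (bars, mean ± SD of 4 libraries). Tmem132e and Cd5l are highest in ileal nodes, Flt1 and Tlr11 are lowest there, and for Clec4g the ileal and jejunal nodes are close.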

How the data were processed

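Per the labels' protocols, the PicoPure kit gave the RNA and a NEBNext kit the poly(A) libraries. Per the submitters' processing notes, the tools were kallisto, edgeR and limma and the builds mm10 and GRCm39, with no version or role stated for any. The gene table the authors deposited holds expected counts (estimated counts per gene) for 56258 genes, and the transcript tables the authors deposited hold estimated counts and TPM. Over genes with at least 500 estimated counts, 99.71% of gene values lay within 0.01 (log2) of length-scaled TPM, so the values are scaled for transcript length and are not raw read counts.

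Estimates were rounded and filtered by edgeR's filterByExpr within positions, at a count of 10 and a total of 15, leaving 29411 genes. After TMM scaling, edgeR 4.0.16 (R 4.3.3) fitted all 20 libraries with 1 mean per position, and a quasi-likelihood test gave both comparisons, ileal against inguinal nodes and ileal against the mean of the other 3 gut positions. Calls needed an adjusted p under 0.05 (Benjamini-Hochberg, all genes of the comparison). The fit used all positions for 15 residual degrees of freedom. The procedure was also run on simulated data, and the outcome of that run is not given here.

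The members of 45 gene lists and the rule for naming genes were chosen with earlier results of these data known. Some genes, such as Madcam1, belong to several lists. The rule named 6 fixed genes, the 14 highest and 14 lowest fold changes against inguinal nodes and 6 of each against other gut nodes (called, at least 5 CPM in the higher group, no overlap), and up to 3 called members per list at 1 CPM or more, or the 2 of highest level in a list without calls. It gave 143 genes, some of which are not reported here, and 27 list members were added after their values were seen. A few further genes are given by their fold change only. Alternatives were DESeq2 1.42.0, limma-voom (limma 3.58.1), size factors of the DESeq2 type (RLE), no low-count filter, plain transcript sums, fits of fewer libraries, the replicate number as a block, and leaving out each library. Same-numbered ileal and inguinal libraries had correlations of deviations of 0.172, 0.083, 0.058 and 0.072, not all above 0.1. The labels do not say what the numbers mark, so whether they pair the libraries is undecided, and no block was used in the main fit.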

Additional observations from a re-analysis of the deposited data

Results flagged for a closer look

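Libraries were looked over for single values far from the other 3 of their group, by Dixon's ratio, in 306 groups of 4, and 19 groups (6.21%) had one. Chance flags about 1 in 20 groups. In ileal nodes, library 1 was highest for Flt1 at 52.8 CPM and lowest for Spib at 140.0 CPM. Ileal library 2 was lowest for Nkx2-3 at 20.1 CPM, and highest for Ccl9 at 24.5 CPM and Upk3b, a mesothelial gene, at 2.3 CPM. Ileal library 3 was highest for Mup22 at 0.0155 CPM and lowest for Serpinc1 at 8.72 CPM. Ileal library 4 was lowest for Klrc1 at 24.7 CPM, Glycam1 at 68.1 CPM and Ccl19 at 208.0 CPM.

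In inguinal nodes, library 1 was highest for Glp2r at 0.766 CPM, Bpifb3 at 14.3 CPM, Clec9a at 65.6 CPM and Hoxc8 at 9.56 CPM, and lowest for Des at 168.0 CPM. Inguinal library 2 was lowest for Mfap4 at 0.218 CPM and highest for Ccr2 at 236.0 CPM. Inguinal library 3 was highest for Emx2 at 2.0 CPM, and library 4 for Cdh17 at 0.788 CPM.

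For 12 of the genes examined, the ileal node differed from the other gut-draining nodes by a called log2 difference of at least 1, so that its contrast with the inguinal node had another size than theirs. These differences are from the mean of log2 levels of the other 3 positions, and need not hold against each position or against the mean CPM: Hoxc10 was at 1.17 CPM in ileal and 6.73 CPM in ceco-colonic nodes, and Il22 at 2.71 CPM in ileal, 0.130 CPM in duodenal, 1.79 CPM in jejunal and 2.2 CPM in ceco-colonic nodes. Positive log2 differences were 3.59 for Upk3b, 1.97 for Hoxc10, 1.77 for Il22, 1.14 for Xlr5c, 1.10 for Xlr5b, 1.05 for C6, 1.03 for Tmem132e and 1.02 for Foxf2. Negative ones were -1.75 for Sostdc1, -1.68 for Cd207, -1.18 for Ngp and -1.15 for Glycam1. The calls of Upk3b, Il22, Cd207, Ngp and Glycam1 were lost without at least 1 ileal library, and those of the other 7 were kept under every alternative.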

How the results depend on the processing

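The count of genes differing between ileal and inguinal nodes kept within 1.5 times of 6648 under every alternative, from 5454 without single libraries (to 6121) up to 8141 with only the 8 ileal and inguinal libraries, and no gene called in both fits changed direction. Higher calls ranged from 2966 to 3310 and lower calls from 2478 to 2811 without single libraries. With the replicate number as a block, 7504 were called. Each ileal and inguinal library correlated best with its own number in the other group, a hint from the data only. Against the other gut positions this did not hold in every case. Ileal library 3 had 0.086 with duodenal library 4 and 0.051 with duodenal library 3, and ileal library 4 had 0.072 with jejunal library 2 and 0.041 with jejunal library 4. Of the named genes, Rag2, never called, changed sign to 0.016 with limma-voom, and ranged from -0.129 to 0.126 without single libraries (0.046 without ileal replicate 3). Ccl19, never called, ranged from -0.024 to 0.18, the sign turning without inguinal replicate 1. Against the other gut-draining nodes calls depended more on the processing: 1544 became 2526 (993 lower) with DESeq2 and 2280 (782 lower) with the replicate block, and 526 to 2125 without single libraries (375 to 1381 higher, 151 to 751 lower); the cause was not tested. Depth limits genes near 0, where inguinal or ileal levels rest on few counts.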
